A study of Mus musculus with 6 samples.

Results

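The genes described here handle thyroid hormone or answer to it: the nuclear receptors Thra and Thrb, the deiodinases Dio2 and Dio3, the hormone-binding proteins Crym and Ttr, and the hormone-responsive gene Klf9. Every probe set annotated to 1 of these genes and to no other was taken, which gave 17 probe sets of 6 genes out of 22626 probe sets tested and 12393 genes measured. Thra had 2 probe sets, Thrb 1, Dio2 3, Crym 1, Ttr 3 and Klf9 7. Dio3 had 0 single-gene probe sets in the annotation used and was not analysed here.

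Thyroid hormone circulates mostly as thyroxine, is carried in blood and cerebrospinal fluid by binding proteins, and is converted inside tissues to the active form, triiodothyronine, by Dio2 or inactivated by Dio3. Triiodothyronine binds the receptors encoded by Thra and Thrb, which regulate transcription together with retinoid X receptors. In rodents the developing cochlea needs thyroid hormone to mature, and loss of Thrb or Dio2 impairs hearing.

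The samples were cochleae of mouse embryos at embryonic day 18.5 on a C57BL/6J background, bred from parents that each carried 1 null allele of Igf1, the gene of insulin-like growth factor 1. One group was wild type (Igf-1+/+) and the other null (Igf-1-/-), with 3 independent pools each, and each pool held RNA of 4 cochleae with the otic capsule and without the vestibular organs. The labels name no treatment, and every pool was hybridised to 1 single-colour Affymetrix array. For the 3 null samples a further label field carries the wild type sign, and for wild type replicate 2 it gives the age as E18.6, so genotype and age follow the titles and descriptions. Pooling hides differences between embryos, and the extent of the Igf1 deletion is not described in the labels.

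Values are log2 signals after quantile normalization, differences are null minus wild type, and the number of arrays limits their precision. The median of all probe sets was 6.14, and correlations between arrays ran from 0.939 to 0.960. Igf1 signal was lower in every null pool than in every wild type pool at its 3 probe sets, with differences of -0.55, -0.46 and -0.99 and adjusted p-values in limma of 0.889, 0.887 and 0.600. All 13 cochlear marker genes were measured, and Otor, a secreted protein of the inner ear, read between 11.79 and 12.24 in the 6 pools. The vestibular marker Oc90 read between 9.96 and 11.67 although vestibular tissue was excluded.

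With limma, 0 of the 17 probe sets passed a Benjamini-Hochberg adjusted p of 0.05, a threshold that 0% of all probe sets passed. At an unadjusted p under 0.05 in limma there were 4 of the 17, against 4.99% of all probe sets. All 4 belonged to Klf9 and were lower in the null pools, where 2.58% of all probe sets met that rule in that direction. At these same 4 every null pool lay below every wild type pool, a pattern held by 5.30% of all probe sets, while 0 of the 17 lay entirely above, against 5.53%. Of the 17 probe sets 13 were lower and 4 higher in the null pools, with a median difference of -0.40, against 10117 lower and 10263 higher, and a median difference of 0.0018, over the 20380 single-gene probe sets. Probe sets of a gene are read from the same 6 pools and are not independent of each other.

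**Figure D1:**
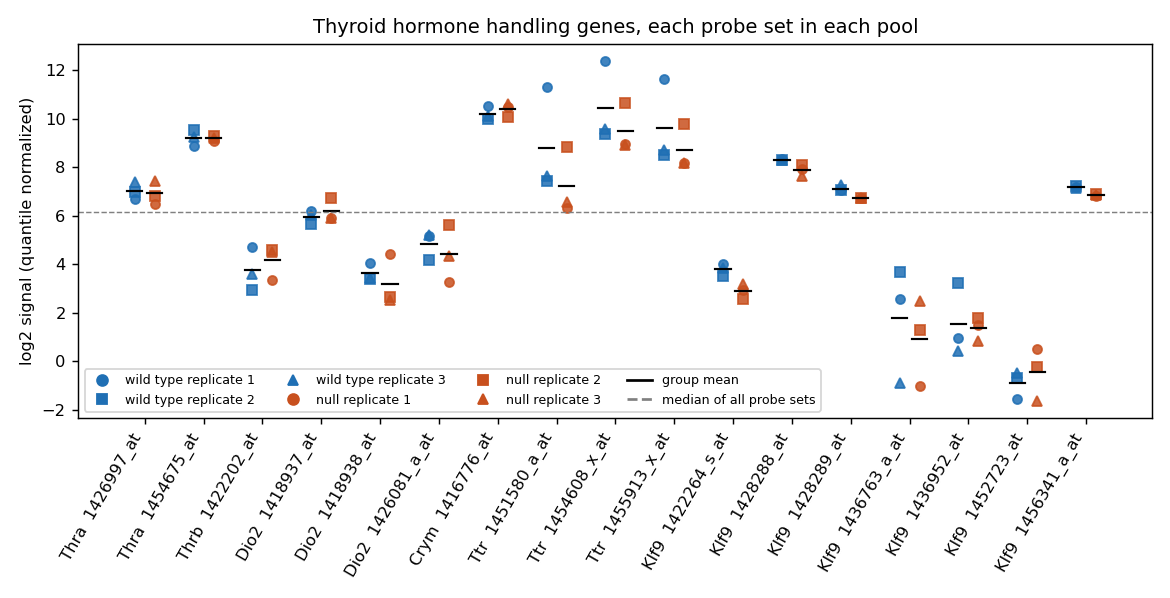
Log2 signal (vertical axis, quantile normalized) of each of the 17 probe sets (horizontal axis) in the 3 wild type and 3 null pools, with the group means as bars and the median of all probe sets, 6.14, as a dashed line. Wild type replicate 1 is highest at all 3 Ttr probe sets and null replicate 2 comes next, and 4 Klf9 probe sets have all null pools below all wild type pools.

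Klf9 encodes a zinc-finger transcription factor that is induced by thyroid hormone and by glucocorticoids in several tissues. It was lower in all 3 null pools at 4 of its 7 probe sets, at 0.544 to 0.792 of the wild type signal, and none of these differences passed the adjusted threshold. The 0.544 is from the dim probe set 1422264_s_at, and the 3 above the median level lay at 0.741 to 0.792. Klf9 had probe sets whose groups did not overlap, and Dio2 encodes the enzyme that makes active hormone, so the promoters of both genes are shown here. Both are from RefSeq on assembly GRCm38.p6 and run from 250 bases before to 50 bases after the annotated start, 5′ to 3′ on the gene's strand. Klf9 lies at chr19:23140976-23141275 on the plus strand and Dio2 at chr12:90738989-90739288 on the minus strand. Capitals mark matches on either strand to 1 of 4 motifs, namely the thyroid hormone receptor half-site AGGTCA, the cyclic AMP response element TGACGTCA, the GC box GGGCGG and the CCAAT box CCAAT.
Klf9: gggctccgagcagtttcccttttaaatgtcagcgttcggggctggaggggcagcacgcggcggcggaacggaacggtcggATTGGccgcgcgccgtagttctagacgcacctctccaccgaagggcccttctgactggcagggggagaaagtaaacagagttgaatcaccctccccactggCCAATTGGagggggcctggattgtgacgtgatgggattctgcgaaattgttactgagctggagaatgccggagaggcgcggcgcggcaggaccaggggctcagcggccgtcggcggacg
Dio2: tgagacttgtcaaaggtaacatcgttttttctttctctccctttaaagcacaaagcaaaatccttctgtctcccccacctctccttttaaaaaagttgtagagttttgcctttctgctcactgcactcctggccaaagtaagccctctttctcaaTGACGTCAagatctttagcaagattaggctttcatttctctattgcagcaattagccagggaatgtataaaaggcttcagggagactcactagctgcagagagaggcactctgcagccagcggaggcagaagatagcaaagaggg
The Klf9 stretch holds 3 CCAAT matches, which begin 170, 69 and 66 bases before the start, and the last pair overlaps on opposite strands. The Dio2 stretch holds 1 TGACGTCA match, which begins 95 bases before the start. Neither stretch holds a match to AGGTCA or GGGCGG. Among 32851 mouse promoters of the same length, 37.4% hold CCAAT, 1.79% TGACGTCA, 16.3% AGGTCA and 35.7% GGGCGG. Of the 7 genes, 4 were matched in the promoter table, with a chromosome left out of that search. A match describes letters in these windows and not binding in the cochlea.

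At the brightest Klf9 probe set, 1428288_at, the wild type pools read 8.34, 8.30 and 8.28 and the null pools 7.93, 8.08 and 7.61. The wild type values lay close together, the null values spread further, and the groups did not overlap. The difference at 1428288_at was -0.43 ± 0.15 (SE, n = 3 per group; 95% interval -0.82 to -0.05), which is 0.741 of the wild type signal, with an unadjusted p of 0.0329 and an adjusted p of 0.971 in limma.

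At Klf9 1428289_at the values were 7.03, 7.05 and 7.25 in wild type and 6.70, 6.71 and 6.72 in null pools. Here the null pools were nearly equal, all below the lowest wild type pool. The difference was -0.40 ± 0.11 (SE, n = 3 per group; 95% interval -0.68 to -0.12), or 0.758 of wild type, with an unadjusted p of 0.0141 and an adjusted p of 0.889 in limma. Klf9 1456341_a_at read 7.19, 7.22 and 7.14 in wild type and 6.80, 6.90 and 6.85 in null pools, again without overlap. Its difference was -0.34 ± 0.10 (SE, n = 3 per group; 95% interval -0.58 to -0.09), or 0.792 of wild type, with an unadjusted p of 0.0171 and an adjusted p of 0.895 in limma. The annotation gives 1428288_at, 1428289_at and the dim probe set 1452723_at the same sequence record, so these 3 are not separate evidence of a transcript.

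The fourth separated Klf9 probe set, 1422264_s_at, is dim, and its name marks probes shared with similar transcripts. It read 3.99, 3.51 and 3.84 in wild type and 2.93, 2.58 and 3.20 in null pools. The difference was -0.88 ± 0.22 (SE, n = 3 per group; 95% interval -1.43 to -0.32), with an unadjusted p of 0.00926 and an adjusted p of 0.887 in limma. It was the widest of the 4 on the log2 scale, where signals far below the median spread most. A two-sided exact permutation test of each of the 4 reached p = 0.1, the smallest that 3 against 3 pools can reach.

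The other 3 Klf9 probe sets were dimmer still and their groups overlapped. At 1436763_a_at the values were 2.57, 3.69 and -0.92 in wild type and -1.05, 1.29 and 2.46 in null pools, a difference of -0.88 ± 1.50 (SE, n = 3 per group). At 1436952_at they were 0.95, 3.23 and 0.41 against 1.47, 1.79 and 0.81, a difference of -0.17 ± 0.80 (SE, n = 3 per group). At 1452723_at they were -1.55, -0.68 and -0.49 against 0.49, -0.24 and -1.64, a difference of 0.44 ± 0.62 (SE, n = 3 per group). The spread within each genotype at these 3 probe sets exceeded the difference between genotypes, and whether their signal lay above background was not measured. Each 95% interval included 0.

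**Figure D2:**
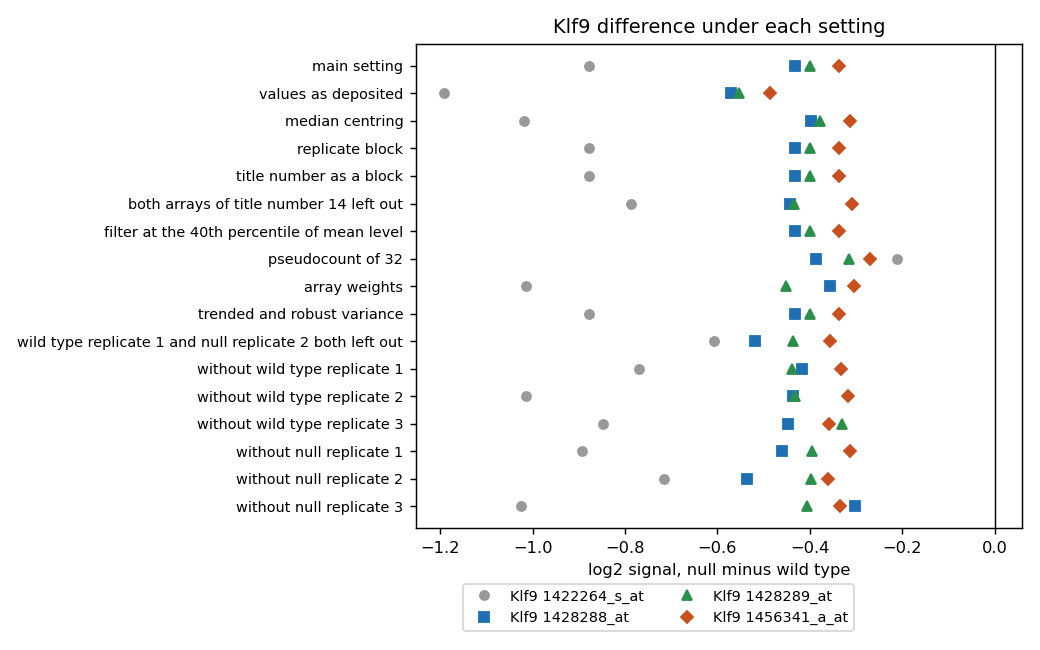
Difference in log2 signal, null minus wild type (horizontal axis), at the 4 Klf9 probe sets whose groups did not overlap, under the main setting and each alternative (vertical axis). Each plotted difference is below 0, and those of 1428288_at run from -0.57 to -0.30. Since the groups are separate in the main setting, only the deposited values and median centring could have turned the direction. The low-level filter leaves out the dim 1422264_s_at.

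Where groups do not overlap, leaving out arrays cannot turn the direction, so those settings bear only on size. The blocks, the filter and the variance setting leave the difference at these 4 Klf9 probe sets unchanged where it is fitted. Separate groups also fix the direction under a pseudocount or array weights. Only the deposited values and median centring could turn it, and with both it was kept. Over all settings the differences ran from -0.57 to -0.30 at 1428288_at, from -0.55 to -0.32 at 1428289_at, from -0.49 to -0.27 at 1456341_a_at and from -1.19 to -0.21 at 1422264_s_at. On the values as deposited, whose array medians differed, 2 of the 4 kept separate groups and at 1428288_at and 1456341_a_at the groups overlapped. Without wild type replicate 1 and null replicate 2, which stand apart for Ttr and pituitary genes, the unadjusted p-values of the 4 in limma were 0.0651 to 0.0996 on 4 arrays. Without both arrays of title number 14, which are replicate 1 of each genotype, they were 0.063 to 0.136, so in both settings 0 of the 4 stood under 0.05. The count of the 17 probe sets at an unadjusted p under 0.05 in limma, 4 in the main setting, was 1 on the values as deposited and 2 without wild type replicate 2 or without wild type replicate 3.

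Other measurements also separated the genotypes. The 3′ minus 5′ log2 signal of beta-actin control probe sets, a measure of RNA integrity, averaged 0.76 ± 0.04 in the wild type pools and 0.94 ± 0.12 in the null pools (SD, n = 3 each), without overlap (exact permutation p = 0.1). Of 10 marker lists, the summed signal of 2 was lower in every null pool. These were blood, with 237 to 323 in wild type and 122 to 188 in null pools, and choroid plexus without Ttr, with 1223 to 1286 and 1041 to 1204. The choroid plexus sum is carried by its bright members Aqp1, a water channel, and Sostdc1, a secreted signalling inhibitor, whose groups overlapped. Dimmer members differed in sign: Otx2, a transcription factor of choroid plexus and other head tissues, was higher in each null pool, with a difference of 1.40 ± 0.38 (SE, n = 3 per group; adjusted p = 0.889 in limma), and Slc4a5 was lower in each. The vestibular list was higher in every null pool, with 2498 to 4141 against 1976 to 2248. The part of these in the Klf9 difference was not tested. In pooled tissue, fewer cells of a type and less RNA per cell cannot be told apart.

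Ttr encodes transthyretin, which carries thyroxine and retinol-binding protein in blood and cerebrospinal fluid and is made mainly by liver and choroid plexus. Its signal differed more between pools of a genotype than between genotypes, and the same 2 pools, wild type replicate 1 and null replicate 2, were highest and second highest at all 3 probe sets. At Ttr 1451580_a_at the wild type pools read 11.31, 7.42 and 7.63 and the null pools 6.32, 8.84 and 6.55. The highest pool had 31.9 times the signal of the lowest, and wild type replicate 1 had 13.9 times the geometric mean of the other wild type pools.

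At Ttr 1454608_x_at the values were 12.37, 9.38 and 9.56 in wild type and 8.94, 10.65 and 8.92 in null pools. Ttr 1455913_x_at read 11.61, 8.52 and 8.69 in wild type and 8.16, 9.78 and 8.15 in null pools. In both, the 4 remaining pools lay within a narrow band below null replicate 2. Wild type replicate 1 stood 2.48, 1.72 and 1.83 above null replicate 2 at 1451580_a_at, 1454608_x_at and 1455913_x_at. Null replicate 2 in turn stood 2.40, 1.72 and 1.63 above the mean of the other null pools. The suffixes of the latter 2 probe sets mark probes shared with other transcripts, but all 3 gave the same highest and second pool.

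The genotype differences of Ttr were -1.55 ± 1.30, -0.93 ± 0.98 and -0.91 ± 0.99 (SE, n = 3 per group) at 1451580_a_at, 1454608_x_at and 1455913_x_at. Their 95% intervals, -4.84 to 1.74, -3.41 to 1.54 and -3.42 to 1.60, all included 0. The adjusted p-values in limma were 0.981, 0.981 and 0.985, and a two-sided exact permutation test reached p = 0.5 at each. These differences rest on single pools: without wild type replicate 1 they were -0.28, 0.036 and 0.094. Without both wild type replicate 1 and null replicate 2 they were -1.08, -0.54 and -0.45. That pair was chosen for its Ttr or pituitary signal, so these last values are a description with no test.

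**Figure D3:**
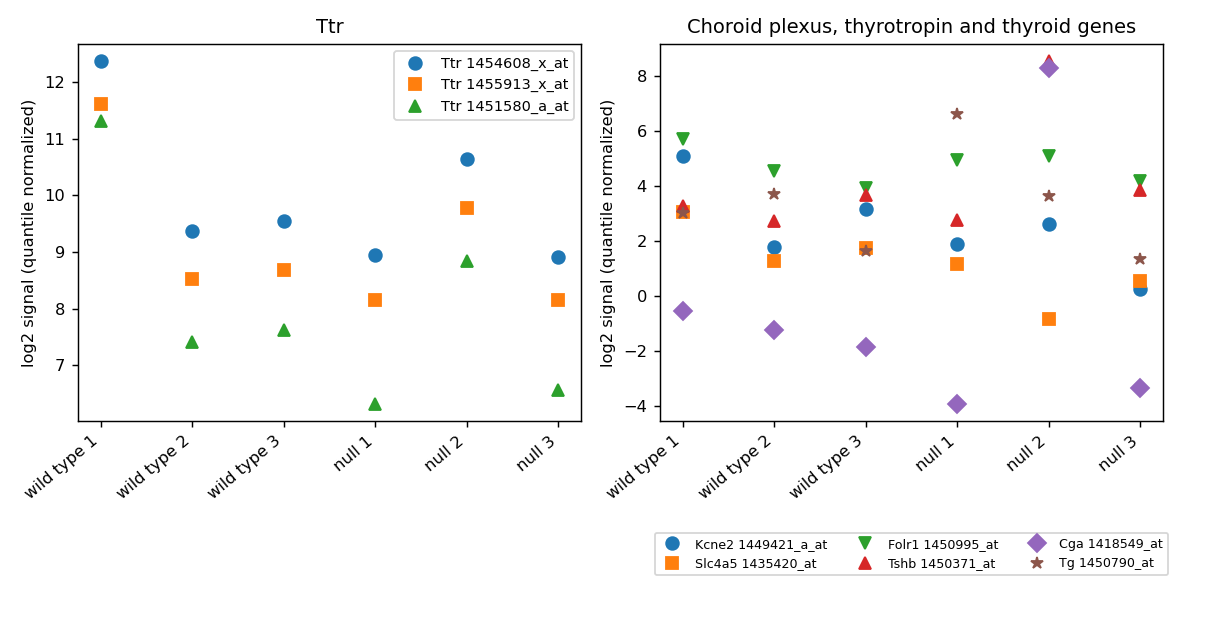
Log2 signal (vertical axes, quantile normalized) in each of the 6 pools (horizontal axes) for the 3 Ttr probe sets on the left and for choroid plexus, thyrotropin and thyroid genes on the right. Ttr is highest in wild type replicate 1 and second highest in null replicate 2, Tshb and Cga are highest in null replicate 2, and Tg is highest in null replicate 1.

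Markers of tissues that make Ttr were read beside it. The choroid plexus list without Ttr had 8 of 11 genes measured, and 4 of its 11 probe sets were highest in wild type replicate 1 and 0 in null replicate 2, while 16.4% and 11.7% of all probe sets were highest in those arrays. Kcne2, a potassium channel subunit of choroid plexus, read 5.11, 1.80 and 3.18 in wild type and 1.89, 2.63 and 0.27 in null pools. Slc4a5, a bicarbonate transporter, read 3.04, 1.28 and 1.74 in wild type and 1.16, -0.85 and 0.57 in null pools. Kcne2 and Slc4a5 were thus highest in wild type replicate 1, as Ttr was, but Slc4a5 was lowest in null replicate 2. Folr1 read 5.70, 4.56 and 3.93 in wild type and 4.97, 5.12 and 4.19 in null pools. Its highest and second highest pools were those of Ttr. Cldn2 1417231_at was also highest in wild type replicate 1. Other probe sets peaked elsewhere: Aqp1 and both of Sostdc1 in wild type replicate 3, Otx2, Kl 1423400_at and Cldn2 1417232_at in null replicate 1. In all, 1 of the 11 probe sets was highest in wild type replicate 2, 3 in wild type replicate 3 and 3 in null replicate 1. The summed choroid plexus signal without Ttr was 1230 in wild type replicate 1, inside the range of the other wild type pools, and 1204 in null replicate 2. The summed liver and yolk sac signal stayed between 26.4 and 48.9 in all 6 pools, with 6 of its 15 probe sets highest in wild type replicate 1. The part of choroid plexus or liver tissue in the Ttr values was not tested.

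Null replicate 2, second highest for Ttr, also stood apart for pituitary genes. The summed pituitary signal was 8018 there, against 273 to 337 in wild type pools, 82.2 in null replicate 1 and 260 in null replicate 3. Tshb, the beta subunit of thyrotropin, read 3.26, 2.74 and 3.66 in wild type and 2.76, 8.55 and 3.86 in null pools, a difference of 1.83 ± 1.56 (SE, n = 3 per group). Cga, the alpha subunit it shares with other pituitary hormones, read -0.53, -1.24 and -1.86 in wild type and -3.91, 8.32 and -3.35 in null pools. Both subunits were therefore high in 1 array alone. Tg, the thyroglobulin from which the thyroid makes hormone, was highest in null replicate 1, at 6.61, against 1.36 to 3.73 in the other 5 pools.

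At the receptors' probe sets the groups overlapped. Thra encodes the receptor that is expressed widely in embryonic tissue. At Thra 1454675_at the wild type pools read 8.86, 9.52 and 9.23 and the null pools 9.07, 9.28 and 9.18. All null values lay inside the wild type range, and the difference was -0.03 ± 0.20 (SE, n = 3 per group; 95% interval -0.53 to 0.47; adjusted p = 0.998 in limma). At Thra 1426997_at they read 6.67, 6.97 and 7.37 against 6.48, 6.83 and 7.43, a difference of -0.09 ± 0.31 (SE, n = 3 per group; 95% interval -0.88 to 0.70; adjusted p = 0.996 in limma). The sign of both Thra differences turned under some alternatives, median centring of the arrays among them for 1454675_at.

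Thrb encodes the receptor needed for hearing in mice. Its probe set 1422202_at lay at the 28.7 percentile of levels and read 4.72, 2.91 and 3.60 in wild type and 3.36, 4.57 and 4.52 in null pools. The lowest and the highest pool were both wild type. The difference was 0.40 ± 0.58 (SE, n = 3 per group; 95% interval -1.06 to 1.86; adjusted p = 0.987 in limma). It depended on the arrays used: without both arrays of title number 14 it was 1.29, with an unadjusted p of 0.0193 and an adjusted p of 0.852 in limma, and without wild type replicate 2 it was -0.011. Without wild type replicate 1 it was 0.89, and without null replicate 1 0.80.

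Dio2 activates thyroxine by removing an outer-ring iodine, and besides the cochlea it is active in brown fat and pituitary. At Dio2 1418937_at the values were 6.17, 5.64 and 6.01 in wild type and 5.91, 6.73 and 5.92 in null pools, a difference of 0.25 ± 0.29 (SE, n = 3 per group; 95% interval -0.48 to 0.97; adjusted p = 0.985 in limma). At Dio2 1426081_a_at they were 5.14, 4.18 and 5.19 in wild type and 3.27, 5.60 and 4.33 in null pools, a difference of -0.44 ± 0.66 (SE, n = 3 per group; 95% interval -2.10 to 1.22). Null replicate 2, the pool with the high pituitary signal, was highest at both. Without null replicate 2 the difference at 1418937_at was -0.025. Dio2 1418938_at, annotated to the same sequence record as 1418937_at, read 4.06, 3.37 and 3.42 in wild type and 4.40, 2.63 and 2.53 in null pools, a difference of -0.43 ± 0.57 (SE, n = 3 per group; 95% interval -1.87 to 1.01). Without null replicate 1 the difference at 1418938_at was -1.04 (unadjusted p of 0.0153 and adjusted p of 0.920 in limma), and without both arrays of title number 14 it was -0.81 (unadjusted p of 0.00831 and adjusted p of 0.754 in limma). Without wild type replicate 1 it was -0.21, without null replicate 2 -0.15 and without null replicate 3 -0.10. Null replicate 1 was highest at 1418938_at, so the 3 Dio2 probe sets gave no common order of the pools.

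Crym encodes mu-crystallin, a cytosolic protein that binds triiodothyronine and in which mutations cause deafness in humans. Its probe set 1416776_at lay at the 96.9 percentile of levels and read 10.51, 9.98 and 10.10 in wild type and 10.48, 10.08 and 10.58 in null pools. Wild type replicate 1 and null replicates 1 and 3 were the higher pools, so the split ran across genotype. The difference was 0.18 ± 0.21 (SE, n = 3 per group; 95% interval -0.36 to 0.72; adjusted p = 0.985 in limma).

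**Figure D4:**
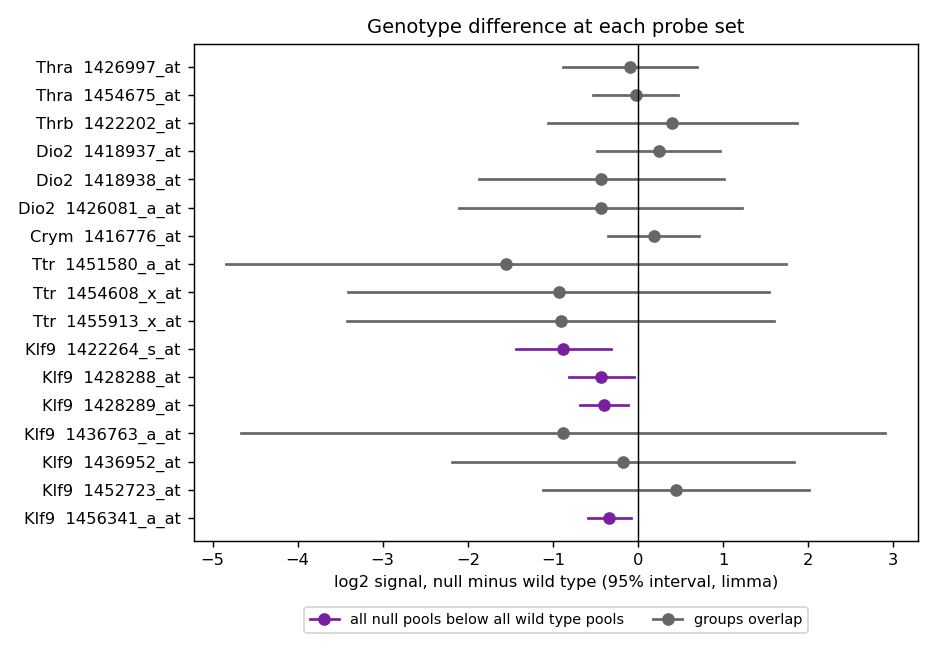
Difference in log2 signal, null minus wild type (horizontal axis), with its 95% interval from limma, at each of the 17 probe sets (vertical axis). The 4 Klf9 probe sets with separate groups have intervals below 0, and the Ttr intervals reach from -4.84 to 1.74.

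For each gene, those whose brightest probe sets followed its pool-to-pool pattern most closely were read as Pearson's r over the 6 arrays. These are descriptions, since the best of 7101 or 7102 genes above the median level over 6 arrays is bound to correlate highly. For Klf9 they were Bace2 at 0.988, Lap3 at 0.988 and Lclat1 at 0.980, and for Ttr Zkscan1 at 0.985, Nedd4l at 0.958, Lpp at 0.948, Rab5a at 0.941 and Prkci at 0.941. For Thra they were Fyn at 0.992, Ncdn at 0.987 and Ube2o at 0.986, and for Thrb Ttc14 at 0.983, Ptprk at 0.975 and 4932438A13Rik at 0.975. For Dio2 they were Lrrc56 at 0.970, Dmac2l at 0.957 and Stk16 at 0.955, and for Crym Pmel at 0.994, Wdr61 at 0.993 and Ice2 at 0.986.

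The rest of the pathway was read from lists that hold 58 further genes, of which 46 were measured at 74 probe sets. Of the 74, 41 were higher and 33 lower in the null pools, with a median difference of 0.05, and 0 passed the adjusted threshold in limma. At an unadjusted p under 0.05 in limma 4 were higher and 1 was lower. At 3 every null pool lay below every wild type pool and at 6 above, which as shares of 74 are near the backgrounds given for all probe sets. The counts and medians given next for each list also include the 17 probe sets described above.

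Among receptors and their partners, 10 of 12 genes were measured at 23 probe sets, 13 higher and 10 lower, with 0 at an unadjusted p under 0.05 in limma. Tbl1x, a part of the corepressor complex, was lower in each null pool at 1434644_at, with a difference of -0.28 ± 0.11 (SE, n = 3 per group; adjusted p = 0.980 in limma). At its brighter probe sets 1434643_at and 1455042_at the groups overlapped, with differences of 0.08 and -0.02. Med1, the Mediator subunit that nuclear receptors contact, was higher in each null pool at 1421907_at, with a difference of 0.30 ± 0.14 (SE, n = 3 per group; adjusted p = 0.980 in limma). At its other probe sets the groups overlapped. The differences there were -0.0048 at 1448708_at, 0.04 at 1421906_at, 0.14 at 1439408_a_at, -0.94 at 1450402_at and -0.42 at 1453972_x_at. Rxrb, a retinoid X receptor, differed by 0.14 ± 0.10 (SE, n = 3 per group), with every null pool above every wild type pool. Rxra, its relative, differed by -0.06 ± 0.15 (SE, n = 3 per group) at the brighter of its 2 probe sets and by -0.60 ± 0.39 at the dimmer.

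Of 8 membrane transporters 5 were measured, each at 1 probe set, and all 5 were lower in the null pools with a median difference of -0.18, 0 of them at an unadjusted p under 0.05 in limma. Slco1c1, a thyroxine transporter of brain capillaries and choroid plexus, read 4.54, 4.72 and 4.43 in wild type and 2.63, 4.58 and 3.58 in null pools. Its groups overlapped through null replicate 2, and the difference was -0.97 ± 0.50 (SE, n = 3 per group; 95% interval -2.23 to 0.30). Among genes of hormone metabolism and selenoprotein synthesis 7 of 10 were measured at 11 probe sets, 7 higher and 4 lower, with 0 at an unadjusted p under 0.05 in limma. Dio1, a deiodinase of liver and kidney, was dim, with values from -0.65 to 2.36 and a difference of 0.15 ± 0.85 (SE, n = 3 per group).

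The carriers in blood and cell had 6 of 7 genes measured at 8 probe sets, 3 higher and 5 lower. Their median difference was -0.55, with 0 at an unadjusted p under 0.05 in limma. The 5 lower include the 3 of Ttr, whose differences rest on single pools. Pkm, a pyruvate kinase that also binds triiodothyronine, was lower in each null pool, with a difference of -0.18 ± 0.11 (SE, n = 3 per group). The target genes known from other tissues had 15 of 16 measured at 33 probe sets, 12 higher and 21 lower, with a median of -0.17. At an unadjusted p under 0.05 in limma 3 of the 33 were higher and 4 lower, against 4.99% of all probe sets in either direction, and the 4 lower are the Klf9 probe sets described above. The 3 higher, named after their values were seen, are dim probe sets of Slc26a5, Pcp2 and Hr, and at each every null pool lay above every wild type pool. Slc26a5, the motor protein of outer hair cells, read -1.76, -0.80 and -1.03 in wild type and 0.15, 0.86 and 1.21 in null pools. Its difference was 1.93 ± 0.38 (SE, n = 3 per group; adjusted p = 0.856 in limma), the smallest unadjusted p of the pathway lists, at 0.00313. Pcp2, a gene of Purkinje cells, differed by 1.44 ± 0.48 (SE, n = 3 per group; adjusted p = 0.961 in limma) at 1419084_a_at and by -0.22 and -0.13 at its other 2 probe sets. Genes of the thyroid gland and thyrotropin axis had 9 of 12 measured at 11 probe sets, 10 higher and 1 lower. Their median level, 2.02, lay far below the median of all probe sets, and their median difference was 1.17. At an unadjusted p under 0.05 in limma 1 was higher and 1 was lower. The 10 higher include Tshb and Cga, high in null replicate 2 alone, and Tg, highest in null replicate 1.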

How the data were processed

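Signals were measured on 6 Affymetrix arrays, 3 wild type and 3 Igf1 null, 1 per RNA pool. Biotin-labelled cRNA was made from 6 µg of total RNA, per the labels' protocols. As deposited, the table lists log2 signals of 22690 probe sets on each array, with the base judged from the spread of the values. How the authors summarised probes and corrected background is not stated in the sources used here.

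The 64 control probe sets were left out. The deposited array medians ran from 5.61 to 6.36, so arrays were quantile normalized, and limma 3.58.1 in R 4.3.3 was fitted on genotype (lmFit and eBayes, two-sided, Benjamini-Hochberg over 22626 probe sets, threshold 0.05, no filter on level). Genes came from the platform annotation, under which 20380 probe sets had 1 gene, 691 several and 1555 none. The fit was tested on simulated data. Single values were compared with an exact permutation test over the arrays.

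The genes described, the pathway lists and the marker lists were chosen with earlier results of these data known. All member probe sets are named. Of the pathway lists, a gene is named where a probe set above the median level had groups that did not overlap, up to 3 per list by smallest p, with Slco1c1, Dio1, Rxra and Tshb in any case; a further gene of this rule is not reported here. For likeness, the 3 genes (5 for Ttr) with the highest r to a gene's brightest probe set are named. Marker genes shown with values (Kcne2, Slc4a5, Folr1, Otx2, Cga, Tg, Otor and Oc90) were chosen after their values were seen. Marker lists were summed on the linear scale over each gene's brightest probe set, and the result of each list used is given. Alternatives were the deposited values, median centring, the replicate or title number as a block, the arrays of title number 14 left out, a filter at the 40th percentile of level, a pseudocount of 32, array weights, a trended and robust variance, and each array left out. Leaving out wild type replicate 1 with null replicate 2 was added after seeing the data.

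Other marker lists were summed likewise. In wild type and null pools the ranges were 7720 to 10360 and 8466 to 10460 for cochlea, 38.3 to 63.7 and 23.1 to 43.5 for pancreatic islet, 16.7 to 36.0 and 23.9 to 115.8 for thyroid gland, 261 to 676 and 357 to 567 for brain, and 113 to 152 and 115 to 180 for retinal pigment epithelium.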

Additional observations from a re-analysis of the deposited data

How the results depend on the processing

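No setting gave an adjusted p under 0.05 in limma for any of the 17 probe sets, whose adjusted p over all alternatives ran from 0.545 to 1. Of 265 alternative values 25 turned sign, and none of these belonged to Crym or to the 4 Klf9 probe sets with separate groups. At those 4 only the deposited values and median centring could have turned it. The count of those Klf9 probe sets was 2 on the values as deposited and 3 with the filter, which leaves out 1422264_s_at. Leaving out arrays can keep or raise that count and never lower it, so it is no test of it. The difference turned at Thra 1454675_at to 0.026 with median centring and 0.0083 with array weights. With array weights Klf9 1436763_a_at gave 0.21 and Klf9 1436952_at 0.41. Without both arrays of title number 14, Dio2 1426081_a_at gave 0.28, the Ttr probe sets 0.18, 0.32 and 0.36, Klf9 1436763_a_at 0.49 and Klf9 1452723_at -0.36. Without wild type replicate 1 and null replicate 2 together Dio2 1418938_at gave 0.070. With 1 array left out in turn the differences ran from -2.35 to -0.28 at Ttr 1451580_a_at, -1.51 to 0.036 at Ttr 1454608_x_at, -1.45 to 0.094 at Ttr 1455913_x_at, -0.35 to 0.12 at Thra 1426997_at, -0.20 to 0.14 at Thra 1454675_at, -0.011 to 0.89 at Thrb 1422202_at, -0.025 to 0.38 at Dio2 1418937_at, -1.04 to 0.13 at Dio2 1426081_a_at, -1.04 to -0.10 at Dio2 1418938_at, -2.23 to 0.092 at Klf9 1436763_a_at, -0.74 to 0.68 at Klf9 1436952_at and -0.034 to 1.03 at Klf9 1452723_at. The cause of these turns was not tested.

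The replicate numbers occur in both genotypes. Deviations of same-numbered pools correlated at 0.0399, 0.1006 and 0.0209 over all probe sets, where wild type replicate 3 correlated better with null replicate 1, at 0.0332. Above the 40th percentile of level they correlated at 0.145, 0.293 and 0.121, and each array correlated best with its own number, a hint from the data and not from the design. With the replicate block 0 probe sets passed the adjusted threshold in limma, and 1327 rather than 1130 stood at an unadjusted p under 0.05, of them 3 rather than 4 among the 17. Over all settings that count among the 17 ran from 1 to 4, with 2 when both arrays of title number 14 were left out. Those 2 are Thrb 1422202_at, at 1.29, and Dio2 1418938_at, at -0.81, and 0 are of Klf9. The 2 left without wild type replicate 1 and null replicate 2 are of Ttr. Over all probe sets the count was 673 with the filter and 1613 with array weights. At Klf9 1428288_at the unadjusted p in limma was 0.0511 with the replicate block. Signals far below the median varied widely on the log2 scale, so the 3 dimmest Klf9 probe sets and Thrb bear little on direction. The same limit holds for Klf9 1422264_s_at and Dio2 1418938_at, whose mean levels of 3.34 and 3.40 lay below the 3.95 of Thrb.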

Other observations

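Klf9 also answers to glucocorticoids, and a list of 7 other genes of the glucocorticoid response was chosen after the Klf9 values were seen. It had 13 probe sets, 11 lower and 2 higher in the null pools, with a median difference of -0.16. The list includes Nr3c1, the gene of the glucocorticoid receptor itself. Its probe sets, at -0.27, -0.07 and -0.12, are all among the 11. At 4 of the 13 every null pool lay below every wild type pool, against 5.30% of all probe sets. These were Tsc22d3 1420772_a_at and 1425281_a_at, Per1 and Zbtb16 1427638_at, so they are not 4 separate genes. In limma 0 passed the adjusted threshold, and 2 were lower at an unadjusted p under 0.05, against 2.58% of all probe sets. Tsc22d3, which encodes the glucocorticoid-induced leucine zipper, read 8.13, 8.20 and 8.20 in wild type and 7.78, 7.93 and 7.60 in null pools at 1425281_a_at, a difference of -0.41 ± 0.13 (SE, n = 3 per group; adjusted p = 0.906 in limma). At Tsc22d3 1425557_x_at the difference was 0.0032 ± 0.14 (SE, n = 3 per group). Per1, a clock gene, was lower in each null pool, with a difference of -0.16 ± 0.10 (SE, n = 3 per group). The summed signal of the list was 1659 to 1725 in wild type and 1501 to 1562 in null pools. It is drawn from the same genes and adds no separate evidence. The part of glucocorticoids in the Klf9 difference was not tested. Of 5 relatives of Klf9, likewise chosen after its values were seen, Klf10, Klf13 and Klf16 were measured, and the groups overlapped at all 5 of their probe sets.

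Dio2 is also a gene of brown fat. Of a brown fat list chosen after the Dio2 values were seen, 6 of 8 genes were measured. Of its 9 probe sets, 7 were highest in null replicate 2, against 11.7% of all probe sets. Dio2 1418937_at and 1426081_a_at were also highest there. The summed brown fat signal was 1592, 661 and 1557 in wild type replicates 1, 2 and 3. In the null pools it was 2051 in null replicate 2, 1685 in null replicate 1 and 492 in null replicate 3. The order of Dio2 differed, since in null replicate 1 its 1426081_a_at was lowest and its 1418938_at highest. Ucp1, the uncoupling protein of brown fat, read 6.65, 4.43 and 5.65 in wild type and 5.03, 7.49 and 3.46 in null pools. The thyroid hormone target Thrsp read 7.39, 6.14 and 6.86 in wild type and 7.35, 7.89 and 5.54 in null pools at 1424737_at. Ucp1 and Thrsp were thus highest in null replicate 2 and lowest in null replicate 3, with groups that overlapped. The part of brown fat in the Dio2 values was not tested.

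The direct thyroid hormone target Hr, a corepressor, was named after its values were seen, and its probe sets disagreed. At Hr 1422110_at the values were 4.06, 2.39 and 3.52 in wild type and 4.74, 4.72 and 4.58 in null pools, a difference of 1.35 ± 0.44 (SE, n = 3 per group; adjusted p = 0.934 in limma). At Hr 1435950_at they were 3.68, 3.75 and 3.46 in wild type and 3.19, 1.28 and 3.74 in null pools, a difference of -0.89 ± 0.66 (SE, n = 3 per group). Both lay below the median level.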
